A study of Rattus norvegicus with 6 samples.

Results

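The 4 microRNAs (miRNAs) described here are rno-miR-122-5p, rno-miR-122-3p, rno-miR-192-5p and rno-miR-194-5p, written below without the species prefix. They are the liver-associated entries of a table of 764 mature rat miRNAs counted in small extracellular vesicles of plasma. They were chosen by name, all 4 were listed, and all 4 were among the 362 miRNAs with enough counts to be tested. Vesicles were purified from 2 ml of plasma of wild-type male Sprague-Dawley rats that were obtained at 6 to 8 weeks of age, and RNA of 18 to 30 nucleotides was sequenced. The control group (3 libraries) came from rats described only as controls, with no vehicle injection stated. The diabetic group (3 libraries) came from rats given an intraperitoneal injection of streptozotocin, which kills the insulin-secreting islet cells, at a dose of 65 mg/kg while fasting. These rats counted as diabetic above a fasting glucose of 11.1 mmol/L and were sampled at 8 weeks of diabetes. This is a toxin model of insulin loss, in which effects of the toxin and of diabetes cannot be told apart. The labels do not say whether each library came from 1 animal or from a pool. The p-values below therefore measure the spread between these libraries, which may be technical. In bulk plasma vesicle RNA, fewer vesicles of one origin and less of a miRNA per vesicle cannot be told apart.

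miR-122 is made almost wholly in hepatocytes, where it is the most abundant miRNA, takes part in the control of lipid and cholesterol metabolism, and depends on the liver transcription factor HNF4A. It leaks into plasma when hepatocytes are injured and is used as a blood marker of liver damage. miR-192 and miR-194 are transcribed together and are abundant in liver, intestine and kidney. miR-192 restrains the cell cycle downstream of p53 and has been studied in the diabetic kidney.

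The mature sequences below show which members can be told apart by their reads. They are RefSeq sequences in the GRCr8 build, 5′ to 3′, with the seed (bases 2 to 8, which choose the targets) in capitals. The authors' own build was rn6, and their table holds no coordinates.
miR-122-5p: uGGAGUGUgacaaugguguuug
miR-122-3p: aACGCCAUcaucacacuaa
miR-192-5p: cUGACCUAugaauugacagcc
miR-194-5p: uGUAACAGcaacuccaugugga
miR-215: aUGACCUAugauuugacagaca
The 4 members have 4 different seeds. miR-122-5p, miR-122-3p and miR-194-5p share their seed with no other rat miRNA in the RefSeq set, whereas miR-192-5p shares its seed with miR-215. Over the 21 positions of miR-192-5p, miR-215 differs at 3 when both are aligned from the first base. miR-215 had no entry among the listed miRNAs, so it could not be analysed here. How reads common to both were assigned is not given in the sources used here. miR-122-3p is annotated at 19 nucleotides, 1 above the lower size limit of the libraries, against 21 or 22 for the other members.

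The hairpins show how the members are linked by origin, with the annotated mature miRNAs in capitals. Both arms of miR-122 lie in a single hairpin on the plus strand at chr18:61028817-61028901. miR-194-5p comes from 2 hairpins with the same mature sequence, so that its counts cannot be split by locus. One of them, Mir194-2 at chr1:212994024-212994108, ends 100 bases before Mir192 at chr1:212994209-212994318 on the same strand. The other, Mir194-1 at chr13:99382716-99382798, lies 191 bases before Mir215.
Mir122: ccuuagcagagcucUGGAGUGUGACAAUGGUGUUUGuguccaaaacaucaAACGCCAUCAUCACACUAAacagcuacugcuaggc
Mir194-2: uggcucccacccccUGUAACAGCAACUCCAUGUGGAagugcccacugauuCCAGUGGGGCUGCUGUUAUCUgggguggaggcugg
Mir192: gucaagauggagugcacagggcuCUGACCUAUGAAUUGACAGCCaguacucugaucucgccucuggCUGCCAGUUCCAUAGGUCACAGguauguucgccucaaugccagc

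Libraries held between 6254077 and 8930730 miRNA counts, and the detection limit that a count of 0 leaves was 0.336 to 0.48 CPM, for counting error only. CPM are counts divided by the library total and multiplied by 1000000. Levels below are normalized CPM, in which the total was also multiplied by a factor from scaling by TMM (trimmed mean of M values). The factors ran from 0.702 to 1.27. All 3 controls had a factor below 1 and all 3 diabetic libraries one above 1, so that fold changes move with the scaling. The median log2 fold change of all 362 tested miRNAs was 0.02 with TMM and 0.61 with library size as the only scaling.

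Across all miRNAs the comparison of diabetic with control libraries asked which vesicle miRNAs differed at 8 weeks of diabetes. None of the 4 members passed it, while 6 of 362 tested miRNAs (1.66%) did and 1.1% did with a lower level in diabetic libraries. The threshold was 0.05 on the Benjamini-Hochberg adjusted p of the quasi-likelihood F test of edgeR. All 4 had a log2 fold change below 0 under each of the 6 scalings tried, and miR-122-5p turned above 0 when control replicate 3 was left out. At an unadjusted p under 0.05 there were 2 of the 4, miR-122-3p and miR-192-5p, where 22.7% of tested miRNAs had such a p and 11.6% had it with a lower level in diabetic libraries. The authors' deposited table gave miR-122-3p a false discovery rate of 0.0495, where 11.1% of 566 miRNAs with a count lay under 0.05 and 1.06% did so with a lower level in diabetic libraries. The 3 other members had false discovery rates of 0.753 (miR-122-5p), 0.418 (miR-192-5p) and 0.753 (miR-194-5p) in the authors' deposited table.

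**Figure D1:**
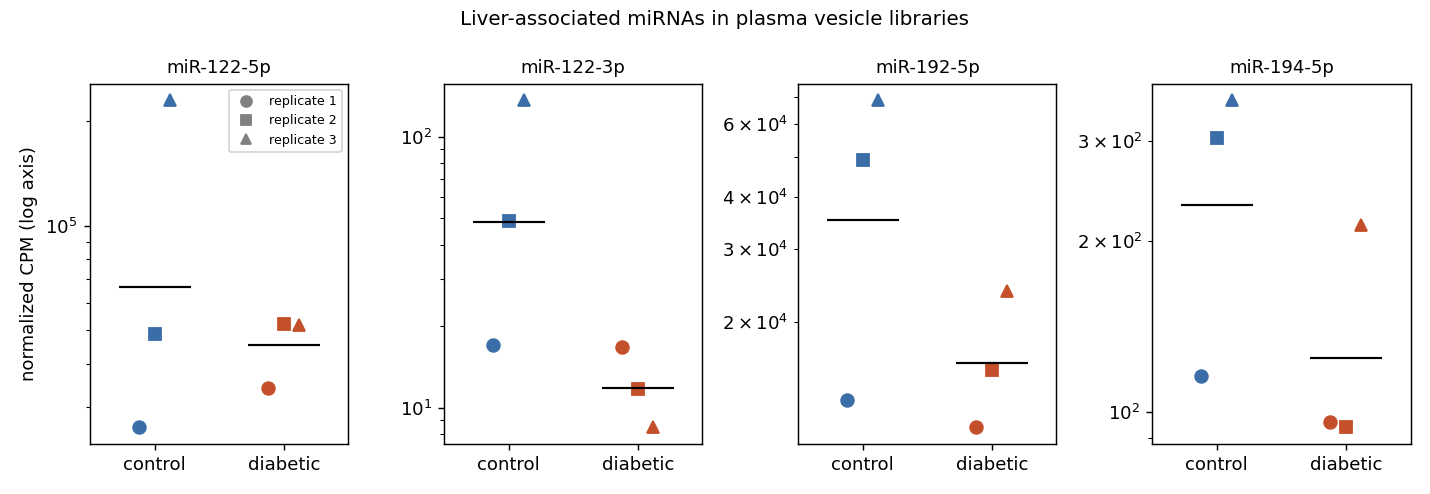
Normalized CPM (log axis, its range differing between panels) of the 4 members in each library, with control libraries in blue, diabetic libraries in orange, a symbol for each replicate number and a line at the geometric mean of 3 libraries. Control replicate 3 is the highest library for all 4 members, at 230541 normalized CPM for miR-122-5p, and control replicate 1 lies close to the diabetic libraries in every panel.

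miR-122-5p, the strand that acts in hepatocytes, was the most abundant member and ranked 3rd of all miRNAs by mean CPM, after miR-148a-3p and the erythroid miR-486 and before miR-128-3p. Its counts in controls, in the order of replicates 1, 2 and 3, were 187681, 296987 and 1058252, and those in diabetic libraries were 325505, 503818 and 486150. On the scale of normalized CPM the controls stood at 26195, 48569 and 230541 and the diabetic libraries at 34113, 52179 and 51578. The 3 diabetic libraries lay close together, control replicates 1 and 2 lay near or below them, and control replicate 3 lay more than 4 times above every other library.

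Its place within a library ran from the 2nd in control replicate 3 to the 7th in control replicate 1, and from the 3rd to the 5th in diabetic libraries. Its share of counts was 2.10%, 4.75% and 16.2% in control and 4.35%, 6.63% and 5.78% in diabetic libraries. The log2 fold change was -1.15 (SE 0.68, 95% interval -2.66 to 0.37) and the adjusted p 0.311 by the quasi-likelihood test of edgeR. Without control replicate 3 it was 0.27 (SE 0.43), and with library size as the only scaling it was -0.46 (SE 0.61). Taken relative to the median of all tested miRNAs, it stood at -1.17 with TMM and at -1.06 with library size only.

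The spread of miR-122-5p differed in size between the groups. Its highest control library stood 8.80 times above its lowest, against 1.53 times in the diabetic group. The standard deviation of log2 normalized CPM was 1.62 in control, above that of 349 of the 362 tested miRNAs, whose median was 0.52. In the diabetic group it was 0.35, below the median of 0.41. The spread was also wider in control for miR-122-3p (1.49 against 0.48), miR-192-5p (1.27 against 0.55) and miR-194-5p (0.87 against 0.67). No test of these differences in spread was made, with 3 libraries a group. Counting error was far smaller for the abundant members: the 187681 counts of miR-122-5p in control replicate 1 have an exact 95% Poisson interval of 186833 to 188532.

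miR-122-3p, the minor strand of this hairpin, was counted 122, 298 and 627 times in controls and 160, 113 and 80 times in diabetic libraries, in the order of replicates 1, 2 and 3. The smallest of these counts has an exact 95% Poisson interval of 63.4 to 99.6. In normalized CPM the levels were 17.0 (control replicate 1), 48.7 (replicate 2) and 137 (replicate 3), against 16.8, 11.7 and 8.49 in the diabetic libraries in the same order. The groups did not overlap, as for 27.9% of tested miRNAs in either direction and 14.6% with the lower level in diabetic libraries, but control replicate 1 lay only just above diabetic replicate 1. In CPM without TMM factors they overlapped, at 13.7 in control replicate 1 against 21.4 in diabetic replicate 1.

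The log2 fold change of miR-122-3p was -2.45 (SE 0.67, 95% interval -3.92 to -0.98) and the adjusted p 0.0853 by the quasi-likelihood test of edgeR, the 16th smallest p of 362. DESeq2 called it, with a log2 fold change of -2.51 and an adjusted p of 0.00582, among 24 miRNAs called as lower (6.63% of those tested). The exact test of edgeR called it too (adjusted p = 0.0168), among 17 called as lower (4.7%). Without control replicate 1 the log2 fold change was -2.92 and the adjusted p 0.00812 by the quasi-likelihood test of edgeR, where 6.1% of 377 miRNAs were called as lower. Without control replicate 3 it was -1.44 (adjusted p = 0.255 by the same edgeR test). With library size as the only scaling it was -1.78 (SE 0.62), and with upper quartile factors -2.79 (SE 0.67). Relative to the median of all tested miRNAs it stood at -2.47 with TMM and at -2.39 with library size only.

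miR-192-5p, which shares its primary transcript with miR-194, ranked 8th of all miRNAs by mean CPM. It was counted 92704, 301037 and 315305 times in controls and 106325, 147553 and 224407 times in diabetic libraries, in the order of replicates 1, 2 and 3. Controls stood at 12939, 49231 and 68690 normalized CPM, and diabetic libraries at 11143, 15282 and 23808. Control replicates 2 and 3 lay above all diabetic libraries, while control replicate 1 lay between diabetic replicates 1 and 2. The log2 fold change was -1.38 (SE 0.56, 95% interval -2.63 to -0.13) and the adjusted p 0.176 by the quasi-likelihood test of edgeR. Scaled by library size alone, the log2 fold change was -0.82 (SE 0.54). Without control replicate 1 it was -1.84 and was called (adjusted p = 0.016 by the quasi-likelihood test of edgeR), in the fit that called 6.1% of 377 miRNAs as lower. Without control replicate 3 it was -0.92 and was not called (adjusted p = 0.469 by the same edgeR test). With all libraries and relative to the median of all tested miRNAs, it stood at -1.40 with TMM and at -1.43 with library size only.

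miR-194-5p, whose counts come from both of its loci, was far less abundant and ranked 102nd by mean CPM. It was counted 828, 1854 and 1623 times in controls and 917, 908 and 2013 times in diabetic libraries. Controls stood at 116, 303 and 354 normalized CPM, and diabetic libraries at 96.1, 94.0 and 214. Diabetic replicate 3 lay above control replicate 1, so that the groups overlapped. The log2 fold change was -0.94 (SE 0.50, 95% interval -2.03 to 0.16) and the adjusted p 0.267 by the quasi-likelihood test of edgeR. It ran from -0.66 without control replicate 3 to -1.41 without diabetic replicate 3, and was -0.40 with library size only. With all libraries and relative to the median of all tested miRNAs, it stood at -0.95 with TMM and at -1.01 with library size only.

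The other arms of these hairpins were near the detection limit. miR-192-3p had 3 to 17 counts in control and 12 to 24 in diabetic libraries, and miR-194-3p had 7 to 26 and 16 to 41. The log2 fold changes were 0.16 (SE 0.78) for miR-192-3p and -0.32 (SE 0.69) for miR-194-3p, and both signs changed with the scaling: upper quartile factors gave -0.15 for miR-192-3p, and library size only gave 0.23 for miR-194-3p.

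By normalized CPM the members fell in the order miR-122-5p, miR-192-5p, miR-194-5p and miR-122-3p. No standard calibrated counts between sequences, so this is an order of counts. miR-194-5p exceeded miR-122-3p in all 6 libraries, by 2.59 to 25.2 times, and miR-192-5p exceeded miR-194-5p by 111 to 194 times. miR-122-5p exceeded miR-192-5p by 2.02 to 3.41 times in 5 libraries and lay just below it in control replicate 2, with a ratio of 0.987. In control libraries the log2 ratio of miR-122-5p over miR-192-5p was 0.91 ± 0.89 (mean ± SD, n = 3), so that these neighbours were not separated by more than about 1 SD there.

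Ratios between members within a library need no scaling between libraries, and 4 of them were tested by exact permutation, two-sided, where 3 libraries against 3 can reach no p below 0.1. The arm ratio of miR-122 was the widest difference. miR-122-5p had 1538, 997 and 1688 times the counts of miR-122-3p in controls, and 2034, 4459 and 6077 times in diabetic libraries. The lowest diabetic ratio exceeded the highest control ratio, with diabetic replicate 1 nearest to the controls. The log2 ratio averaged 10.4 ± 0.41 in controls and 11.9 ± 0.81 in diabetic libraries (± SD, n = 3 each), a difference of 1.47, or a 2.77-fold higher ratio (exact permutation p = 0.1, 0.4 after Benjamini-Hochberg adjustment over the 4 ratios). The difference was 1.13 to 1.92 when single libraries were left out.

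**Figure D2:**
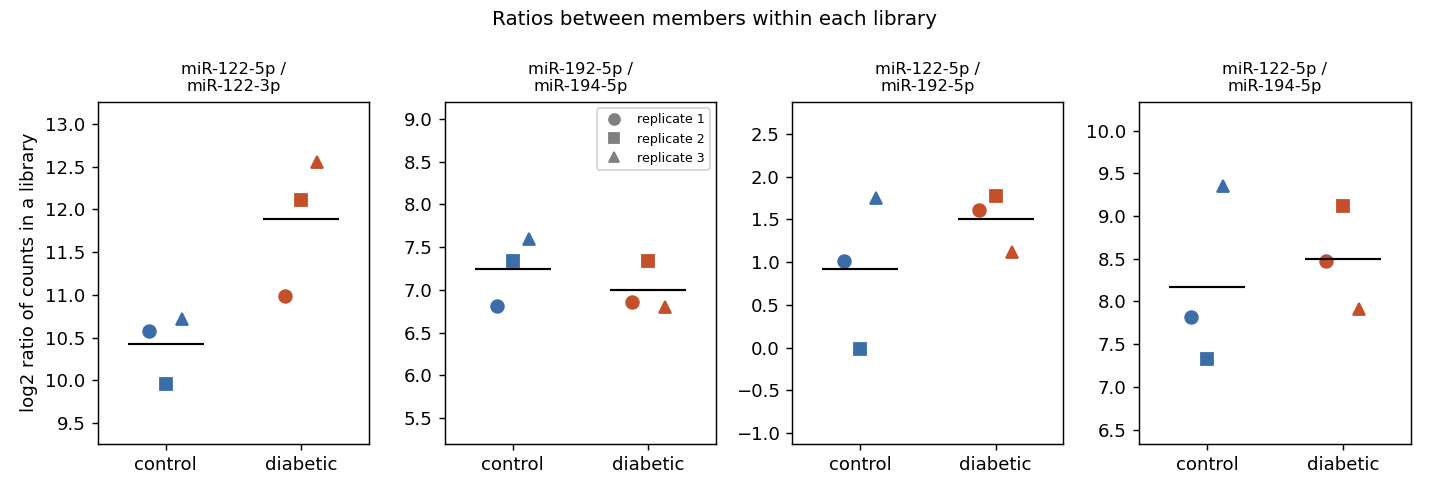
log2 ratio of counts between members within each library, each panel spanning 4 log2 units, with control libraries in blue, diabetic libraries in orange and a line at the mean of 3 libraries. The groups do not overlap for miR-122-5p over miR-122-3p (10.4 against 11.9 on average) and overlap for the other 3 ratios.

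The other 3 ratios overlapped between the groups. miR-192-5p had 112, 162 and 194 times the counts of miR-194-5p in control and 116, 163 and 111 times in diabetic libraries, a log2 difference of -0.25 (exact permutation p = 0.5, n = 3 each). The log2 ratio of miR-122-5p over miR-192-5p was 0.59 higher in diabetic libraries (exact permutation p = 0.4, n = 3 each) and that over miR-194-5p 0.34 higher (exact permutation p = 0.7, n = 3 each), the last at -0.09 without control replicate 2. Adjusted over the 4 ratios, these p-values were 0.667, 0.667 and 0.7.

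To read the arm ratio of miR-122 against other miRNAs, a ratio of the more over the less abundant arm was formed for all 95 miRNA names with both arms tested, a step chosen after the values were seen. The groups did not overlap for 36 of these (37.9%), and 18.9% did so with a higher ratio in diabetic libraries. The change of miR-122 was the 25th largest in size, against a median size of 0.81 on the log2 scale. A shift of this size was thus common among arm pairs in these libraries. miR-122 had the 7th most uneven pair of arms, and the 6 more uneven pairs changed by -1.79 (miR-151) to 1.75 (miR-21). The pair of miR-192, the most uneven, changed by -1.63, with overlapping groups and a less abundant arm near the detection limit. The pair of miR-194, whose minor arm had 7 to 41 counts, changed the opposite way from miR-122, by -0.71, the 52nd largest change in size. Its log2 ratios were 6.79, 6.43 and 5.94 in controls and 5.63, 5.78 and 5.60 in diabetic libraries, without overlap.

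**Figure D3:**
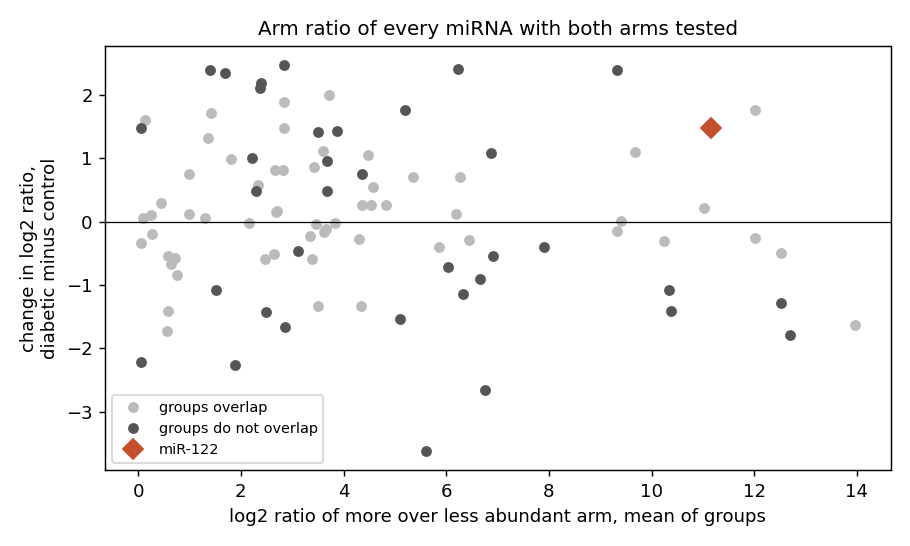
Change in the log2 ratio of the more over the less abundant arm, diabetic minus control, against the mean log2 ratio, for 95 miRNA names with both arms tested. miR-122 (diamond) lies at a change of 1.47 among pairs on both sides of 0, and dark points mark pairs whose groups do not overlap.

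The members also moved together across the 6 libraries to different degrees. On log2 normalized CPM, Pearson's r was 0.96 between miR-192-5p and miR-194-5p, 0.80 between miR-122-5p and miR-192-5p, and 0.75 between the arms of miR-122. These values describe 6 libraries that share their group structure and scaling. Among 246 other tested miRNAs with a mean of at least 10 CPM, the patterns most like miR-192-5p were those of miR-423-5p (r = 0.99), miR-183-5p (0.99) and miR-200b-5p (0.97). Those most like miR-194-5p were miR-200b-5p (0.99), miR-1224 (0.98) and miR-504 (0.97). miR-122-3p was most like let-7e-5p (0.94), miR-204-3p (0.94) and miR-182 (0.93). Pearson's r was lower for miR-122-5p, with miR-203b-3p (0.87), miR-22-3p (0.87) and miR-10a-3p (0.86). By rank (Spearman's rho) these stood at 0.66, 0.54 and 0.94, against 0.77, 0.71 and 0.83 for those of miR-122-3p, in the order named. All these miRNAs were picked as the highest by r among the 246, and no test was made.

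In a list of liver and gut miRNAs that holds the members, 14 of 18 listed entries were tested and none passed the quasi-likelihood test of edgeR (adjusted p at least 0.0853). Of these 14, 10 lay below 0, with a median log2 fold change of -0.73 against 0.02 for all tested miRNAs. With library size only, 8 lay below 0, with a median of -0.14 against 0.61 for all tested miRNAs. The 10 tested entries other than the members had a median of -0.21, with 6 below 0, which became 0.35 with 4 below 0 under library size only, below the 0.61 of all tested miRNAs there. Among them miR-148a-3p, the most abundant miRNA of these vesicles, stood at -0.85 (SE 0.39). The 3 lowest values of the list were those of miR-122-3p, miR-192-5p and miR-122-5p, and miR-21-3p (-1.03, SE 0.81) lay between these and miR-194-5p. The list and its members were chosen with earlier results of these data known, so its direction is no independent evidence. miR-101a-5p and miR-101b-5p were at 0 in every library.

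Summed levels of miRNAs from other sources were set beside those of the members. The 4 members together took 3.15%, 9.60% and 21.0% of the counts of controls and 5.78%, 8.59% and 8.48% of those of diabetic libraries. A list of 12 erythrocyte entries, led by miR-486, took 7.66%, 19.1% and 7.59% of counts in control and 9.77%, 5.68% and 9.16% in diabetic libraries, so that it was highest in control replicate 2, not in control replicate 3. The erythroid miR-451-5p took 1.02%, 1.14% and 0.416% of counts in control libraries and 0.657%, 0.444% and 0.379% in diabetic ones. It had the lowest log2 fold change of the 10 tested erythrocyte entries (-1.33, SE 0.40), of which 6 lay below 0 and 4 above, with miR-16-5p the highest at 0.63 (SE 0.38). Their median was -0.21 against 0.02 for all tested miRNAs, or 0.35 against 0.61 with library size only. Platelet entries (11 listed) took 3.06% to 3.98% in control and 4.93% to 5.64% in diabetic libraries, and leukocyte entries (12 listed) 0.566% to 1.14% and 1.43% to 1.88%. In share of counts both lists were lowest in control replicate 3, where the 4 members took 21.0%, and both counted miR-223. These shares carry no TMM factor, and that factor was lower in every control than in every diabetic library, so the gap between the groups moves with the scaling. The median log2 fold change was 0.10 for tested platelet and 0.29 for tested leukocyte entries, against 0.02 for all tested miRNAs. With library size only, these medians were 0.64 and 0.87, against 0.61 for all tested miRNAs. The part of these sources in the levels of the members was not tested. None of the 10 erythrocyte, 11 platelet and 10 leukocyte entries tested passed the quasi-likelihood test of edgeR.

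Because miR-192 and miR-194 are also abundant in intestine and kidney, 13 entries of these organs, among them miR-10a and the miR-200 family, were summed without the members. They took 0.287%, 0.995% and 0.972% of counts in control and 0.736%, 1.04% and 0.863% in diabetic libraries. The sum was lowest in control replicate 1, which was also the lowest control for all 4 members. Most of it was miR-10a-5p, at 0.270%, 0.941% and 0.924% in control and 0.686%, 0.978% and 0.768% in diabetic libraries, so its pattern is mainly that of a single miRNA. None of the 10 tested entries passed the quasi-likelihood test of edgeR (adjusted p at least 0.269). They had a median of -0.23 on the log2 fold change scale, against 0.02 for all tested miRNAs. When libraries were scaled by size alone it was 0.33, against 0.61 for all tested miRNAs.

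**Figure D4:**
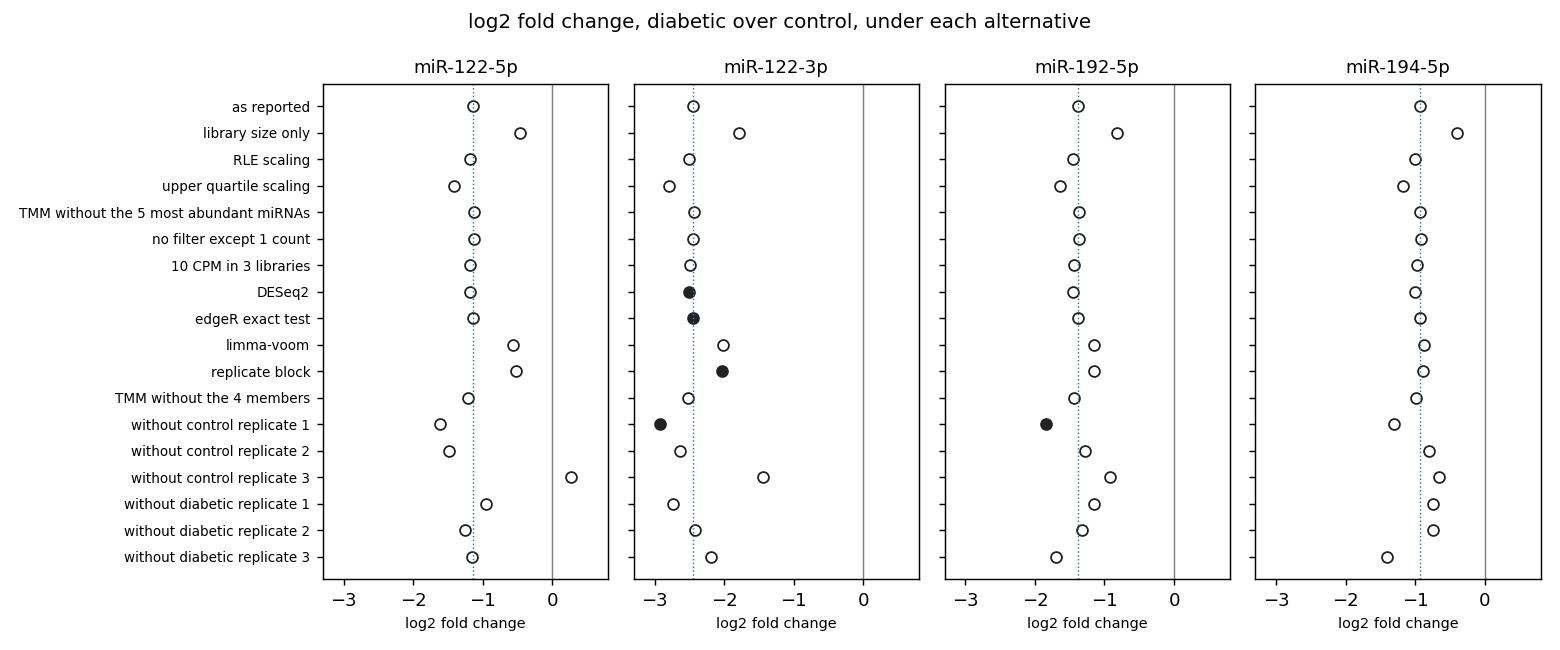
log2 fold change of diabetic over control libraries for each member under the reported setting and 17 alternatives, with filled points at an adjusted p under 0.05 and a dotted line at the reported value. Points lie below 0 except for miR-122-5p without control replicate 3 (0.27), and filled points occur for miR-122-3p and, without control replicate 1, for miR-192-5p.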

How the data were processed

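Total RNA was extracted with TRIZOL and adaptors were ligated to both ends before amplification, per the labels' protocols. Build rn6 is named, per the submitters' processing notes; aligner, counter and annotation release are not given in the sources used here. The authors deposited whole-number counts per mature miRNA in 2 tables, identical in all 4584 cells. The authors' CPM values in one table were recomputed within 0.006 in all 4584 cells. Beside them the authors deposited a log2 fold change of mean CPM, and p-values with false discovery rates that the table's name credits to edgeR and the series text to DEGseq.

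Counts were tested with the two-sided quasi-likelihood F test of edgeR 4.0.16 under R 4.3.3, after filterByExpr (minimum count 10, minimum total 15; 362 of 764 miRNAs kept), without a replicate block. Standard errors are the fold change over the square root of F. Libraries of a group differed by at least 618 in chi-square per degree of freedom, so none was a copy. The model was tested on simulated data. Ratios added 0.5 to each count and used an exact permutation test (scipy 1.17.1). DESeq2 1.42.0 and limma 3.58.1 served as alternatives. Log2 normalized CPM used a prior count of 2. All 4 members were named, with their other arms, seed partners, the 3 most similar miRNAs each, and neighbours by rank. Members, lists and tests were chosen with earlier results of these data known. Sequences were matched by name for all 4 members. Poisson intervals and the CPM limits of a count of 0 hold for counting error alone, since PCR duplicates cannot be told from molecules, whereas intervals of fold changes carry the spread between libraries.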

Additional observations from a re-analysis of the deposited data

How the results depend on the processing

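The number of miRNAs called among all tested was 6, and 49 with library size only, 2 with upper quartile factors, 42 with DESeq2, 30 with edgeR's exact test and 57 with a replicate block. Leaving out single libraries gave 0 to 49 calls in edgeR's quasi-likelihood test, and in the 4 fits with 0 calls 57 to 59 miRNAs had an unadjusted p under 0.05. The replicate block also called miR-122-3p (log2 fold change -2.03, adjusted p = 0.00349 by edgeR) and no other member. That fit called 57 of 362 miRNAs, 31 of them as lower in diabetic libraries. The replicate numbers carry no stated link between the groups, so they were not taken as pairs. Deviations of same-numbered libraries of the 2 groups from their group means had correlations of 0.28, 0.0012 and 0.25. Libraries with different numbers were not compared in this way, so these values cannot show whether the numbers are pairs. With single libraries left out, the log2 fold change ran from -1.61 to 0.27 for miR-122-5p, -2.92 to -1.44 for miR-122-3p, -1.84 to -0.92 for miR-192-5p and -1.41 to -0.66 for miR-194-5p. In the 4 ratios the difference ran from 1.13 to 1.92 (miR-122 arms), -0.47 to -0.07 (miR-192-5p over miR-194-5p), 0.12 to 1.0 (miR-122-5p over miR-192-5p) and -0.085 to 0.93 (miR-122-5p over miR-194-5p). The share of miR-122-5p differed by -2.09 percentage points, with a range of -4.88 to 2.16 over the fits with single libraries left out, above 0 without control replicate 3, and by -5.26 as a share of counts without the 5 most abundant other miRNAs. The differences in share of the other members lay below 0 throughout. The cause of these changes was not tested. A scaling by TMM without the members, added after the data were seen, moved no member across the threshold. In share of all counts the groups overlapped for every member, with exact permutation p-values of 0.9 (miR-122-5p), 0.3 (miR-122-3p), 0.4 (miR-192-5p) and 0.6 (miR-194-5p). With 3 libraries against 3 no ratio or share could pass 0.05.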
